A study of Mus musculus with 5 samples.

Results

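The genes described here encode the enzymes and transporters that build the O-linked sugar chains of mucins, in 6 steps: initiation, core formation, extension, fucosylation, sialylation and sulfation. The set was a list of 46 gene symbols, and 44 of them had a row among the 19198 genes of the deposited small intestine count table. Galnt14, an initiating transferase, and St6galnac1, a sialyltransferase, are in the list but were not analysed here. RNA from the small intestine of 5 mice was sequenced after removal of ribosomal RNA, 1 library per mouse. The 2 Cre-positive mice carried Math1Cre*PR together with floxed alleles of the M4 muscarinic receptor gene (mAChR4fl/fl, gene symbol Chrm4). The Cre-negative group held 3 mAChR4fl/fl littermates without the transgene. All 5 mice carried the floxed alleles and all were gavaged with RU486, a progesterone receptor ligand that activates this Cre fusion, at 10 mg/kg daily for 4 days. Math1 (Atoh1) marks secretory precursors, so most cells of the sampled tissue lie outside its expression. No Cre-positive mouse with unfloxed Chrm4 was in the series, so activated Cre and the targeting of Chrm4 cannot be told apart. The tissue is described as whole small intestine, and strain and age were not given in the sources used here.

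Mucin-type O-glycans are built in the Golgi. A GALNT enzyme first attaches N-acetylgalactosamine to serine or threonine, C1GALT1 with its chaperone COSMC (C1galt1c1) makes the core 1 structure, and GCNT enzymes add branches. Galactose and N-acetylglucosamine then extend the chain, and fucose, sialic acid or sulfate cap it. In the intestine these chains give MUC2 its gel properties, serve as binding sites and food for microbes, and also cover the membrane mucins of enterocytes, so many of these genes are active outside goblet cells as well.

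Library totals ran from 4681119 to 6618204 estimated counts, and 1 count was worth 0.155 to 0.239 CPM (counts scaled to library size, with TMM factors). Chrm4 had 4 to 20 counts in Cre-negative and 5 to 13 in Cre-positive libraries, too few to check the genotype labels. Of 15 enterocyte and 19 goblet cell markers, all had a row in the table. Nothing in the labels names a batch. The labels give each library its own mouse number.

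Promoter sequences are shown for 4 members on which the results below turn and for which the RefSeq table (GRCm38.p6) holds 1 entry each: Galnt5, whose level in 1 Cre-positive library stood apart, the core 1 enzyme gene C1galt1, whose groups did not overlap, and the extension genes B3gnt7 and B4galt1, which were highest in the same Cre-negative library. Each is the stretch of 250 bases before the RefSeq start, 5′ to 3′ on the gene's strand. They lie at chr2:57997905-57998154 (plus strand), chr6:7844974-7845223 (plus), chr1:86302971-86303220 (plus) and chr4:40853985-40854234 (minus). The GENCODE M21 annotation used for exon lengths places the starts elsewhere. It starts Galnt5, C1galt1 and B3gnt7 at 57997884, 7844842 and 86302832, so these windows lie inside its gene spans. B4galt1 starts there at 40854005, within the window shown. Capitals mark matches on either strand to CAGCTG (an E-box, the kind of site bound by basic helix-loop-helix factors such as ATOH1), CAAAGTCCA (HNF4), TTCNNNGAA (STAT) or TATAAA (a core promoter box).
Galnt5: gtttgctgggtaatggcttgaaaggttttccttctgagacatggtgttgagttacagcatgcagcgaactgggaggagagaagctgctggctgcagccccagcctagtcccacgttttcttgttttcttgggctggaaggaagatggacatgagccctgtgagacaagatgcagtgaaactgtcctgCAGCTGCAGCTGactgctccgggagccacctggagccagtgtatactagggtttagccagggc
C1galt1: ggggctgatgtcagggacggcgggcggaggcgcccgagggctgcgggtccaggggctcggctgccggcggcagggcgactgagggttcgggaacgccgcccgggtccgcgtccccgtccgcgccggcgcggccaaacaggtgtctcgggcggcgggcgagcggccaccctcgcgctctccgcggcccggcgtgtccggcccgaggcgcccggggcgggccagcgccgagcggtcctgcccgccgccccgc
B3gnt7: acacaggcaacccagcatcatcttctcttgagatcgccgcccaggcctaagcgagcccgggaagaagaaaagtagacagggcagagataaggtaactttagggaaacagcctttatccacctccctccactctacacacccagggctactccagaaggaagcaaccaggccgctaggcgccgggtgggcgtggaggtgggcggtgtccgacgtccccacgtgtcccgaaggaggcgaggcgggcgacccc
B4galt1: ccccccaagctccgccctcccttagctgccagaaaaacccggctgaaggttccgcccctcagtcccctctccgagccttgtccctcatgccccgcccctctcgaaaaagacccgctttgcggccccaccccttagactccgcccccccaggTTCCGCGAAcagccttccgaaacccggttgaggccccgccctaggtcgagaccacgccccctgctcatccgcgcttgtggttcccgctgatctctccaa
Galnt5 held 2 adjacent copies of the E-box letters and B4galt1 held 1 match to the STAT letters, while the C1galt1 and B3gnt7 windows held none of the 4 motifs. GC content was 82.8% for C1galt1 and 54.0% for Galnt5, with 61.6% for B3gnt7 and 66.4% for B4galt1. The E-box letters occurred in 13% of all 32851 promoter windows of this length and in 5 of the 32 members searched. The STAT letters occurred in 7.02% of all windows and in 3 members, the HNF4 letters in 0.384% and in 1 member, and TATAAA in 12.4% and in 2 members. A member was counted when any of its windows matched, and some members, such as Fut8, had several windows. Shares of members and shares of windows are therefore not in like units. The 32 members include Galnt14, whose expression was not analysed. A match describes the letters and does not show binding.

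No member of the set passed the test between the genotypes. Of the 44 genes, 42 passed the expression filter, and 0 were called at an adjusted p of 0.05 by edgeR's quasi-likelihood test (adjusted p 0.977 to 0.998). Over all 14352 genes tested, 0% were called, where DESeq2 called 19 genes, none of them members, and limma-voom called 0. At an unadjusted p under 0.05, 3 members were higher and 1 lower in Cre-positive mice, 4 of 42, where 3.38% of all genes tested lay under that limit (1.6% higher and 1.78% lower). The log2 fold change (Cre-positive over Cre-negative) came out positive for 24 members and negative for 18, with a median of 0.07, and over all genes tested the median was -0.04 and 45.5% were positive. CPM ranges did not overlap between the groups for 5 members (11.9%), against 18% of all genes tested (7.87% higher and 10.2% lower), so the share of members was no larger than the background. These 5 were Galnt4, Galnt12, C1galt1 and Gcnt4 on the higher side and St3gal6 on the lower side. The other 2 genes, Galnt18 and St3gal3, had 1 to 4 and 2 to 13 counts per library and were not tested. In whole tissue, fewer cells of a type and less RNA per cell cannot be told apart.

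**Figure D1:**
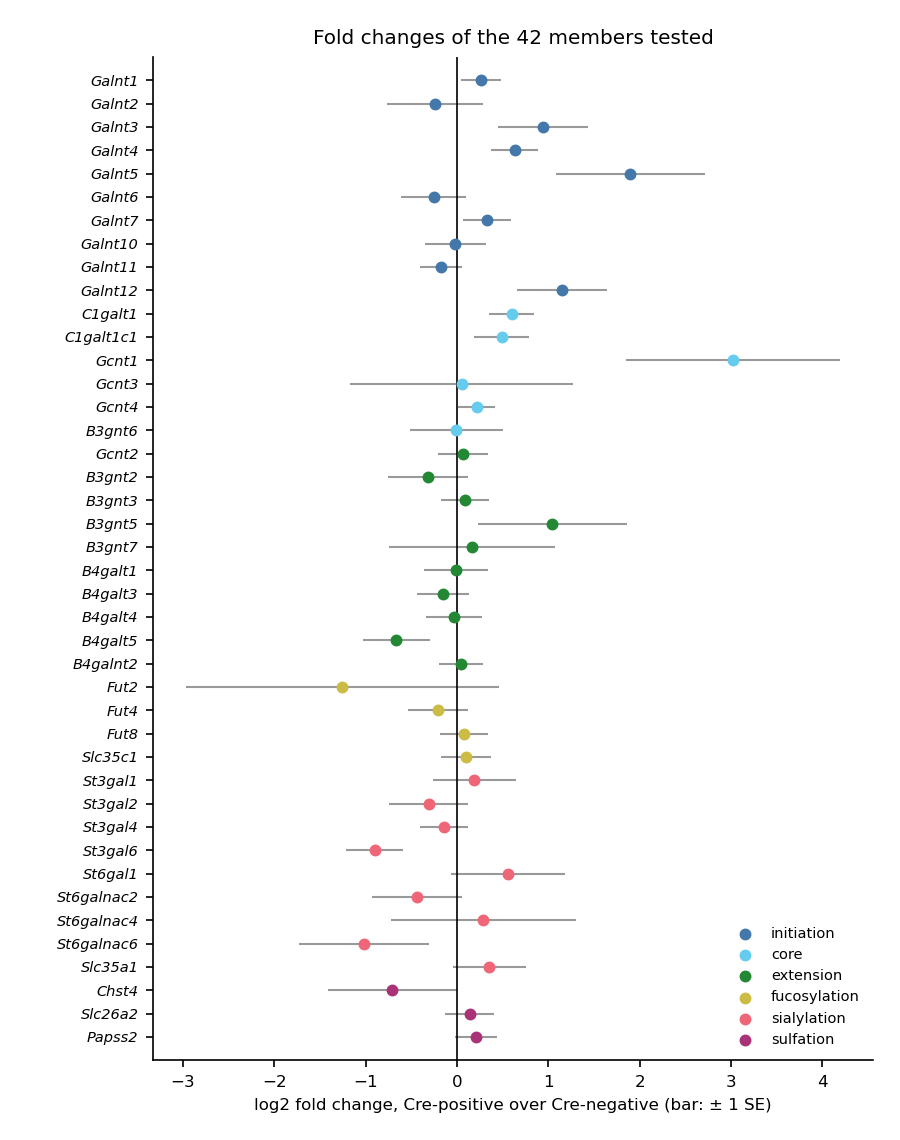
Log2 fold change (Cre-positive over Cre-negative) of the 42 members tested, coloured by enzyme step, with bars of ± 1 SE. Gcnt1 has the highest value at 3.02 and Fut2 the lowest at -1.25, and both have wide bars.

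Initiating transferases decide which mucin serines and threonines carry a chain. Per kilobase of exon, Galnt1 was the most abundant of the 11 measured, at 28.5 ± 4.81 CPM per kb (SD, n = 3) among Cre-negative mice, against 34.1 ± 0.174 (SD, n = 2) among Cre-positive mice, followed by Galnt7, Galnt6 and Galnt4. In CPM, Galnt1 stood at 142, 143 and 188 in Cre-negative 1, 2 and 3 and at 188 and 189 in Cre-positive 1 and 2, and the groups overlapped. Galnt4, which glycosylates peptides that already carry a sugar, had 51.8, 74.0 and 73.2 CPM in the Cre-negative libraries and 120 and 85.5 CPM in Cre-positive 1 and 2. Both Cre-positive mice lay above all Cre-negative mice, and the log2 fold change was 0.63 ± 0.26 (SE; edgeR adjusted p = 0.977). It ranged from 0.39 to 0.89 without each library in turn, and Galnt4 (chromosome 10, 99108159 to 99113247, plus strand, GRCm38) overlaps Poc1b exons on the same strand. Poc1b had 52, 106 and 111 counts among Cre-negative mice, against 80 and 114 among Cre-positive mice, with a log2 fold change of -0.01. Galnt12, a transferase best known from colon, had 1.91, 3.14 and 2.92 CPM against 8.46 and 3.56 CPM (log2 fold change 1.15 ± 0.50; adjusted p = 0.977). Its groups did not overlap, but Cre-positive 2 was only just above the highest Cre-negative library, and without Cre-positive 1 the value was 0.44.

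Among the remaining initiation genes, Galnt5 and Galnt3 were highest in 1 Cre-positive library. Galnt5, chosen here after its values were seen, had 1.43, 4.80 and 4.71 CPM among Cre-negative mice, against 24.6 and 3.41 CPM among Cre-positive mice. Cre-positive 1 alone stood apart, and the log2 fold change of 1.90 ± 0.82 became -0.10 without it and 2.75 without Cre-positive 2. Galnt3, a transferase of mucous epithelia, had 11.2, 26.4 and 18.7 CPM against 52.7 and 19.7 CPM, and its value of 0.94 ± 0.49 became 0.09 without Cre-positive 1. Galnt6 ran the other way in the same library, with 67.8 to 80.8 CPM among Cre-negative mice, against 36.3 and 84.8 CPM among Cre-positive mice. Galnt7, Galnt10, Galnt11 and Galnt2 had log2 fold changes from -0.24 to 0.33, with overlapping groups. Summed over the step, CPM was 491 ± 67.9 (SD, n = 3) among Cre-negative mice, against 601 ± 3.44 (SD, n = 2) among Cre-positive mice (exact permutation test, two-sided p = 0.2, where 3 against 2 mice cannot go below 0.1).

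**Figure D2:**
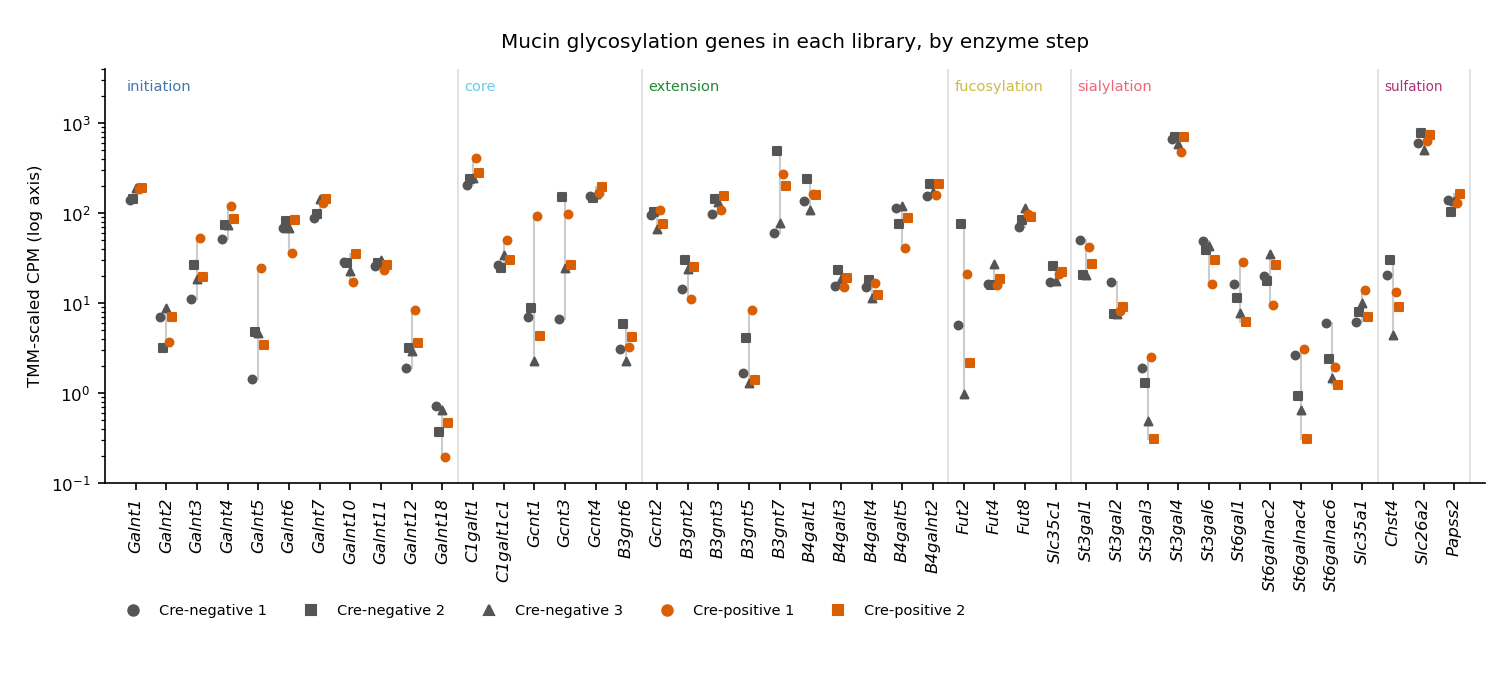
TMM-scaled CPM (log axis) of the 44 members with a row, by library and enzyme step, with Cre-negative mice in grey and Cre-positive mice in orange. The highest library exceeds the lowest 77.9-fold for Fut2, 40.9-fold for Gcnt1, 22.5-fold for Gcnt3 and 17.2-fold for Galnt5, the widest ranges. The narrowest is 1.29-fold, for Galnt11.

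Core formation was led by C1galt1, the core 1 galactosyltransferase, at 37.6 ± 3.35 CPM per kb among Cre-negative mice, against 56.8 ± 15.1 among Cre-positive mice. C1galt1 (chromosome 6, 7844842 to 7875687, plus strand, GRCm38) had 206, 237 and 244 CPM among Cre-negative mice, against 412 and 281 CPM among Cre-positive mice. Both Cre-positive mice were above the Cre-negative range, with a log2 fold change of 0.60 ± 0.24 (adjusted p = 0.977) and 0.33 to 0.89 without each library in turn. C1galt1c1, the chaperone without which C1GALT1 is not active, had 26.3, 24.7 and 34.4 CPM against 50.2 and 29.8 CPM, so that Cre-positive 2 lay inside the Cre-negative range. Its log2 fold change was 0.49 ± 0.30, and 0.09 without Cre-positive 1.

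Of the branching enzymes, Gcnt4, a core 2 enzyme, was steady at 156, 147 and 165 CPM among Cre-negative mice, against 166 and 196 CPM among Cre-positive mice. Its groups did not overlap, but the log2 fold change was only 0.21 ± 0.20 and the estimated counts were not whole in any of the 5 libraries. Gcnt1, the core 2 enzyme of many tissues including lymphocytes, had 6.92, 8.86 and 2.27 CPM among Cre-negative mice, against 92.9 and 4.34 CPM among Cre-positive mice. One library therefore carried the log2 fold change of 3.02 ± 1.17 (adjusted p = 0.977), and leaving out that library gave -0.43, where leaving out Cre-positive 2 gave 4.00. Gcnt3, the mucin enzyme that makes core 2 and core 4 branches, had 6.68, 150 and 24.5 CPM against 98.6 and 26.8 CPM. It was high in Cre-negative 2 and Cre-positive 1, the groups overlapped, and the log2 fold change was 0.05 ± 1.22. B3gnt6, the core 3 enzyme that is best known from colon, stayed low at 2.27 to 5.91 CPM in all 5 libraries.

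Most of the extension genes add galactose or N-acetylglucosamine. B4galnt2, which instead makes the Sda antigen, had the highest level of the 10 per kilobase, at 105 ± 16.6 CPM per kb among Cre-negative mice, against 108 ± 22.5 among Cre-positive mice. In CPM it had 156, 212 and 174 against 158 and 213, so the groups nearly coincided (log2 fold change 0.04 ± 0.24). B4galt5, a galactosyltransferase, had 113, 76.6 and 119 CPM among Cre-negative mice, against 41.2 and 88.3 CPM among Cre-positive mice. Cre-positive 1 was the lowest library and Cre-positive 2 lay inside the Cre-negative range, with a log2 fold change of -0.67 ± 0.37 that became -0.19 without Cre-positive 1 and -1.28 without Cre-positive 2. B3gnt5, which starts lacto-series glycolipids, had 1.67, 4.06 and 1.30 CPM against 8.46 and 1.39 CPM, and its value of 1.04 ± 0.82 became -0.72 without Cre-positive 1. B3gnt7, which extends poly-N-acetyllactosamine, had 60.6, 495 and 78.1 CPM among Cre-negative mice, against 274 and 199 CPM among Cre-positive mice. Cre-negative 2 was the highest library, both Cre-positive mice were above the other 2 Cre-negative mice, and the value of 0.16 ± 0.91 (log2 fold change) became 1.77 without Cre-negative 2. B4galt1, the lactose synthase galactosyltransferase, had 136, 242 and 109 CPM against 162 and 160 CPM, again highest in Cre-negative 2. With B4galt1, the genes B4galt3, B4galt4, B3gnt2, B3gnt3 and Gcnt2 had log2 fold changes from -0.32 to 0.09 and overlapping groups.

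Fucosylation genes cap the chain with fucose. Fut8, which adds core fucose to N-glycans and not to mucin O-glycans, was the most abundant per kilobase, at 11.3 ± 2.96 CPM per kb among Cre-negative mice, against 11.9 ± 0.813 among Cre-positive mice. It had 69.2, 83.4 and 115 CPM against 98.6 and 89.6 CPM. Fut2, the secretor enzyme that puts the terminal fucose on intestinal mucins and is known to be induced by commensal microbes, had 5.73, 75.8 and 0.974 CPM in Cre-negative 1, 2 and 3. It had 21.2 and 2.17 CPM in Cre-positive 1 and 2, inside that range. The log2 fold change of -1.25 ± 1.72 turned to 1.84 without Cre-negative 2 and went to -3.64 without Cre-positive 1, so the fold change rested on single libraries. The counts behind the low values were 24, 6 and 14, and the exact Poisson 95% intervals, which cover counting error only, ran from 3.67 to 8.52 CPM in Cre-negative 1, from 0.357 to 2.12 CPM in Cre-negative 3 and from 1.19 to 3.64 CPM in Cre-positive 2. Fut4, a Lewis x enzyme, had 16.5, 15.7 and 27.3 CPM against 15.8 and 18.6 CPM, and the GDP-fucose transporter gene Slc35c1 had 17.2 to 25.7 CPM in all 5 libraries.

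Sialylation was dominated by St3gal4, which adds sialic acid to terminal galactose. It was the most abundant member of all 43 with an exon length, at 223 ± 20.7 CPM per kb among Cre-negative mice, against 202 ± 52.6 among Cre-positive mice. In CPM it had 659, 708 and 588 against 481 and 699, and the groups overlapped (log2 fold change -0.14 ± 0.26). St3gal6 (chromosome 16, 58468125 to 58524243, minus strand, GRCm38), an enzyme of the same kind, had 48.4, 38.9 and 42.7 CPM among Cre-negative mice, against 16.2 and 30.1 CPM among Cre-positive mice. Both Cre-positive mice lay below all Cre-negative mice, and the log2 fold change was -0.90 ± 0.31, with the smallest unadjusted p of the set (edgeR adjusted p = 0.977). Leaving out Cre-positive 1 gave -0.49, and leaving out Cre-positive 2 gave -1.38. An exon of St3gal6 overlaps Dcbld2 on the opposite strand, and its counts were not whole in all 5 libraries. Dcbld2 had 228, 190 and 147 counts among Cre-negative mice, against 98 and 123 among Cre-positive mice, also lower, with a log2 fold change of -0.99. Whether the counting used strand was not given in the sources used here, and without strand the reads of the pair cannot be told apart.

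The low-abundance sialyltransferases were noisier. St6galnac6 had 5.97, 2.40 and 1.46 CPM against 1.92 and 1.24 CPM (log2 fold change -1.02 ± 0.71). St6gal1, which caps N-glycans and is abundant in B cells, had 16.2, 11.4 and 7.79 CPM against 28.7 and 6.20 CPM, with Cre-positive 1 the highest and Cre-positive 2 the lowest library. The value of 0.56 ± 0.62 (log2 fold change) became -0.88 without Cre-positive 1. St3gal1, the enzyme that caps core 1 chains, had 20.3 to 49.6 CPM in Cre-negative and 27.0 to 41.5 CPM in Cre-positive mice. Slc35a1, the CMP-sialic acid transporter gene, had 6.21 to 10.1 CPM against 13.8 and 6.97 CPM. St3gal2, St6galnac2 and St6galnac4 had log2 fold changes from -0.44 to 0.29 with overlapping groups.

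Sulfation needs sulfate uptake, its activation and a sulfotransferase. Slc26a2, a sulfate transporter gene, led the step at 50.6 ± 11.5 CPM per kb among Cre-negative mice, against 55.7 ± 5.73 among Cre-positive mice. In CPM it had 599, 780 and 500 against 638 and 739, and both Cre-positive mice lay inside the Cre-negative range. Papss2, which makes the activated sulfate donor, had 139, 103 and 136 CPM against 128 and 162 CPM (log2 fold change 0.21 ± 0.23). Chst4, a sulfotransferase acting on N-acetylglucosamine, had 20.8, 29.9 and 4.38 CPM against 13.3 and 9.14 CPM. Its Cre-negative libraries alone spanned both Cre-positive values, and the log2 fold change was -0.71 ± 0.71.

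The make-up of each step, taken as each member's share of the step's summed CPM per kb within a library, overlapped between the groups for 41 of 43 members. The exceptions were Galnt11 and St3gal6. Shares have no background over all genes. In CPM, ranges did not overlap for 18% of all genes tested, so separate shares were no more frequent than that. Galnt1 made up 29.3% ± 2.45 (SD, n = 3) of initiation among Cre-negative mice, against 28.6% ± 0.377 (SD, n = 2) among Cre-positive mice. C1galt1 made up 36.4% ± 4.34 and 39.5% ± 1.36 of core formation, and St3gal4 91.5% ± 1.93 and 90.6% ± 4.72 of sialylation. Galnt11 made up 4.22% ± 0.231 of initiation among Cre-negative and 3.04% ± 0.260 among Cre-positive mice. St3gal6 made up 2.90% ± 0.409 and 1.65% ± 0.373 of sialylation, in the same order. Both had the smallest p that 3 against 2 mice allow (exact permutation test, two-sided p = 0.1; 1.0 when adjusted over the 43 shares). Sialylation shares leave out St6galnac2, whose symbol has 2 gene IDs in the annotation. Fut2 held 38.6% of the fucosylation step in Cre-negative 2 and 0.669% in Cre-negative 3, and Gcnt3 held 28.2% of core formation in Cre-negative 2 and 1.79% in Cre-negative 1.

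**Figure D3:**
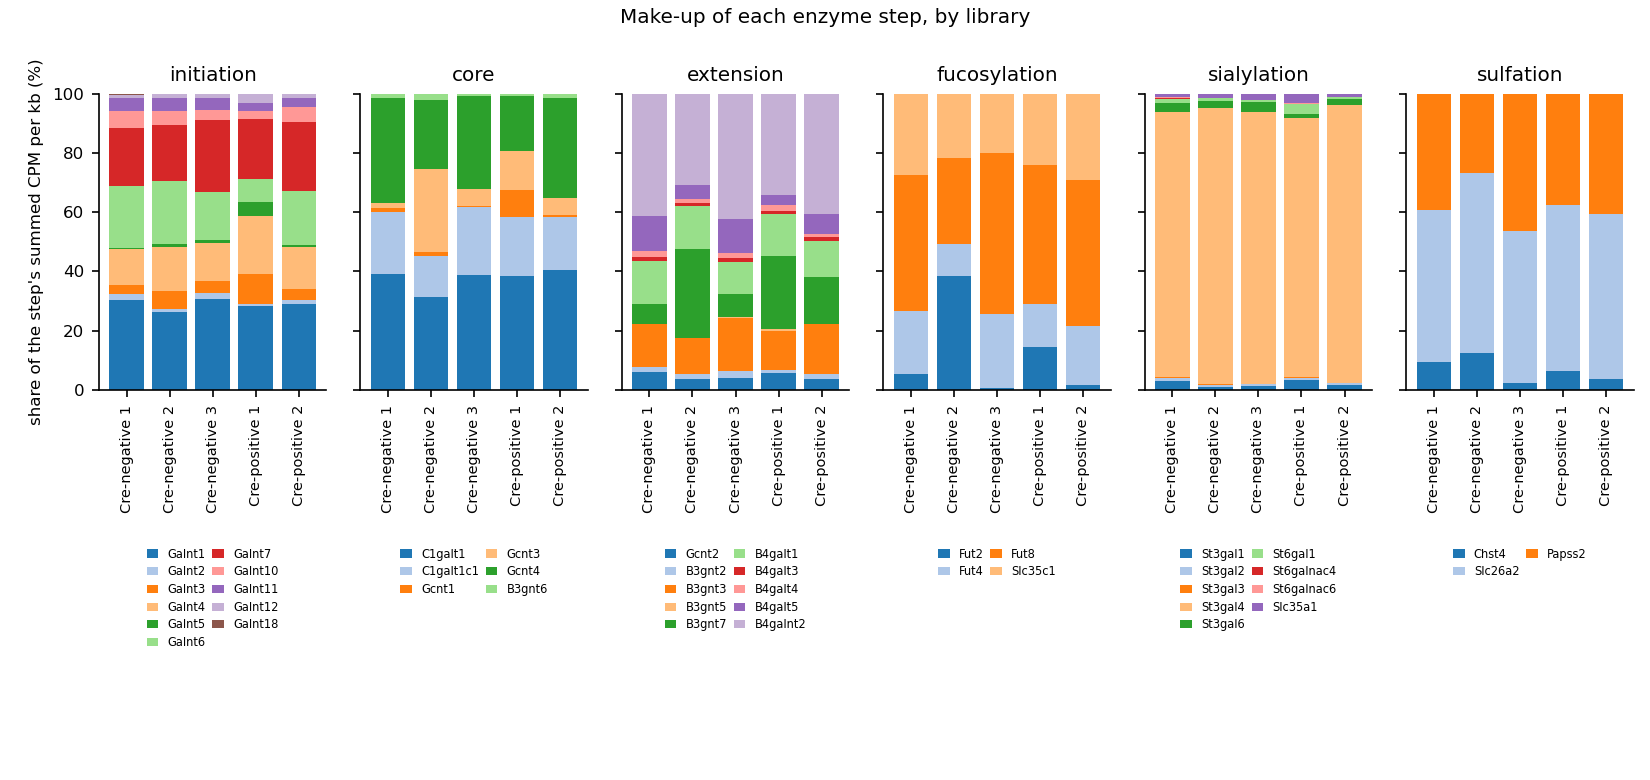
Share (%) of each member in the summed CPM per kb of its enzyme step, 1 stacked bar per library and 1 panel per step. St3gal4 takes 87.3% to 94.0% of sialylation in every library, while the Gcnt3, B3gnt7 and Fut2 segments are largest in Cre-negative 2.

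Fut2 had the widest spread in the set, and it lay among mice of one group. Among Cre-negative mice the highest library exceeded the lowest 77.9-fold for Fut2, 22.5-fold for Gcnt3, 8.17-fold for B3gnt7 and 6.82-fold for Chst4. Of all genes tested, 0.564% had a wider Cre-negative range than Fut2 and 0.704% a wider one than Gcnt3, counting genes with a library at 0 as wider. The median range was 1.63-fold over the 42 members and 1.56-fold over 14276 genes with a count in every Cre-negative library. Fut2, Gcnt3, B3gnt7, B4galt1 and B4galt4 were highest in Cre-negative 2 and next highest in Cre-positive 1, an order seen in 5 of 42 members (11.9%) and in 3.89% of all genes tested. The order was picked after the values were seen, and among 45 other pathway genes tested it occurred in 2 (4.44%), B3galt5 and Slc35a2. B3galt5, a galactosyltransferase of type 1 chains outside the set, had the same order, with 3.34, 144 and 9.25 CPM among Cre-negative mice, against 39.8 and 16.4 CPM among Cre-positive mice. Gmds, which catalyses a step in making the GDP-fucose that FUT2 uses, had 48.7, 253 and 122 CPM against 320 and 153 CPM. The same 2 libraries were therefore highest in the reverse order.

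Genes of proximal and distal intestine also differed widely among the 5 libraries. The lactase gene Lct, a gene of proximal and middle intestine, had 258, 15.7 and 878 CPM among Cre-negative mice, against 3.46 and 630 CPM among Cre-positive mice. Apoa4, a lipid-carrier gene of proximal intestine, had 384, 94.3 and 865 against 58.1 and 668 CPM. The ileal bile acid transporter gene Slc10a2 had 217, 375 and 6.49 against 805 and 45.7 CPM. The summed CPM of the 8 proximal markers ranged from 311 to 2132 among Cre-negative mice, against 319 and 1554 for the Cre-positive pair, and 1 of the 8, Fabp1, was at 0 in Cre-positive 1. The 7 distal markers summed to 2583, 1327 and 813 CPM among Cre-negative mice, against 2216 and 1926 CPM among Cre-positive mice. Cre-negative 2 and Cre-positive 1 had the lowest proximal sums and the highest Slc10a2, but the markers did not all follow that order. The distal sum was highest in Cre-negative 1 and second lowest in Cre-negative 2. One distal marker, Cubn, had 2012, 552 and 657 CPM among Cre-negative mice, against 877 and 1585 CPM among Cre-positive mice. Cubn therefore made up most of the distal sum in Cre-negative 1, Cre-negative 3 and Cre-positive 2. Slc51b, with 62.1, 128 and 40.1 against 268 and 90.5 CPM, had the order of Slc10a2. Fgf15, with 49.4, 2.95 and 0.811 against 14.6 and 27.3 CPM, did not. Slc40a1, the iron exporter gene on the proximal list, was also highest in Cre-positive 1 and Cre-negative 2, with 19.3, 96.3 and 8.60 CPM against 232 and 25.1 CPM. The part of position along the intestine in the spread of Fut2, Gcnt3 and B3gnt7 was not tested.

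**Figure D4:**
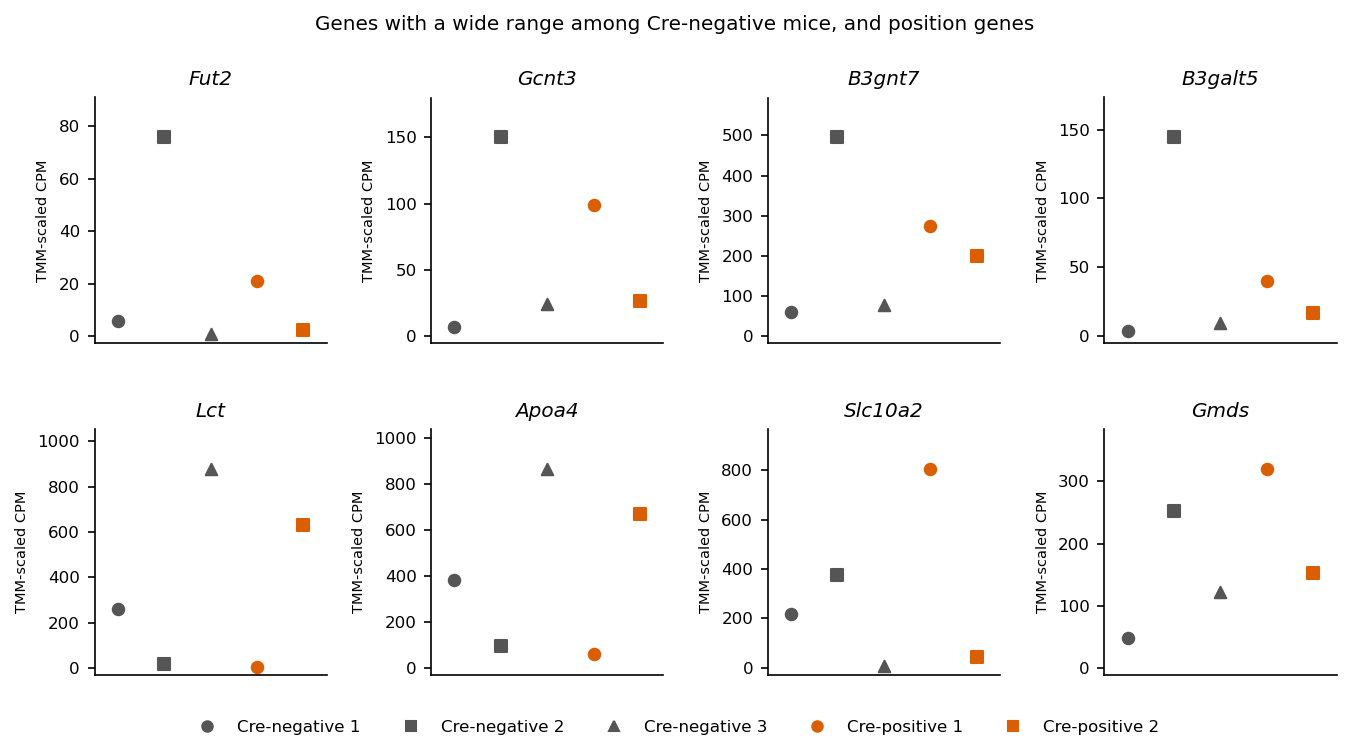
TMM-scaled CPM per library of Fut2, Gcnt3, B3gnt7 and B3galt5 (top) and of Lct, Apoa4, Slc10a2 and Gmds (bottom), with Cre-negative mice in grey and Cre-positive mice in orange. The top genes are highest in Cre-negative 2, where Lct is at 15.7 CPM.

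Members that were highest in Cre-positive 1 included Gcnt1, Galnt5, Galnt12, B3gnt5 and St6gal1, and 12 of 42 members (28.6%) peaked there, against 25.1% of all genes tested. That library also had the highest summed level of lymphocyte markers. The 9 measured B and plasma cell markers summed to 28.4 to 107 CPM in Cre-negative libraries, against 840 CPM for Cre-positive 1 and 49.9 CPM for Cre-positive 2, with 1 to 3 of the 9 at 0 in each Cre-negative library, and with 0 and 2 at 0 in Cre-positive 1 and 2. The 8 measured T cell markers summed to 5.17 to 9.74 CPM, against 75.4 and 15.2 CPM, with 0 to 1 of the 8 at 0 in each library. Enterocyte markers summed to 11901 to 21441 CPM among Cre-negative mice, against 9404 and 21656 CPM among Cre-positive mice. The part of lymphocyte RNA in the Gcnt1 and St6gal1 values was not tested.

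Goblet cell markers were measured beside the enzymes. The 19 markers summed to 666, 1097 and 1442 CPM among Cre-negative mice, against 5346 and 2372 CPM among Cre-positive mice, and 1 marker was at 0 in Cre-negative 1 and in Cre-positive 2. Of the 15 that passed the filter, a filter that high counts among Cre-positive mice suffice to pass, 0 passed the test over all genes, and the median log2 fold change was 1.33, against 0.07 for the glycosylation genes. Muc2, the gel-forming mucin that carries these glycans, had 321, 601 and 556 CPM among Cre-negative mice, against 2052 and 1037 CPM among Cre-positive mice (log2 fold change 1.65 ± 0.40; adjusted p = 0.977). Clca1, a protein secreted into mucus, had a log2 fold change of 3.32 ± 0.68 (adjusted p = 0.977). The difference between these lists was not tested. By step, the median log2 fold change was 0.29 for initiation, 0.35 for core formation, 0.01 for extension, -0.06 for fucosylation, -0.14 for sialylation and 0.14 for sulfation. Without each library in turn these medians ranged from 0.22 to 0.53 for initiation, from 0.14 to 0.79 for core formation, from -0.14 to 0.17 for extension, from -0.17 to 0.17 for fucosylation, from -0.20 to 0.09 for sialylation and from 0.04 to 0.27 for sulfation. The highest initiation median came without Cre-negative 3, and the lowest and highest core medians without Cre-positive 1 and Cre-positive 2. The sign turned for extension without each library other than Cre-negative 2, and for fucosylation without Cre-negative 2 or 3. For sialylation it turned without Cre-negative 1 or Cre-positive 2. Each median covers the members that passed that fit's own filter, so the genes behind it can differ between fits. Over the 9 sialylation genes of the main fit, the median without Cre-positive 2 was -0.34, so that turn came with a change of genes. The 10 smooth muscle markers had a median log2 fold change of -0.83 and summed to 4036, 2032 and 1565 CPM among Cre-negative mice, against 1305 and 1571 CPM among Cre-positive mice. Cre-negative 1 was far the highest and Cre-positive 2 lay inside the Cre-negative range. The 10 proliferation markers had a median of 0.56 and summed to 125, 314 and 463 CPM against 617 and 272 CPM, with Cre-positive 2 again inside the Cre-negative range. Groups did not overlap for 9 of 15 goblet cell genes (60%, all higher) and 3 of 10 smooth muscle genes (30%, all lower). For proliferation the count was 0 of 10, against 18% of all genes tested (7.87% higher and 10.2% lower). In the smooth muscle and proliferation lists 0 genes passed the test. The part of these markers in the enzyme values was not tested.

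Genes that supply the sugar and sulfate donors were tested in the same fit. Of 28 tested, 0 passed the test, 18 were positive and 10 negative, and the median log2 fold change was 0.23. Gfpt1, which commits glucose carbon to hexosamine synthesis, was the most abundant in CPM, with 272, 577 and 404 among Cre-negative mice, against 1008 and 489 among Cre-positive mice, and Cre-positive 2 lay inside the Cre-negative range. Gnpnat1, which acetylates glucosamine phosphate, had 9.55, 33.8 and 18.3 CPM against 87.9 and 27.7 CPM (log2 fold change 1.48 ± 0.61; adjusted p = 0.977). Other O-glycan and capping transferases outside the set had 17 of 48 listed genes tested, and 0 passed. Of these 17, 4 were positive and 13 negative, with a median of -0.58. Groups did not overlap for 5 (29.4%), all on the lower side, against 18% of all genes tested and 10.2% on the lower side. Among these 5, B3gnt8, B3galt4 and A4galt had 3 to 8 counts in the Cre-positive libraries. They passed the filter on their Cre-negative counts alone, so the lower side of this list is partly set by the filter. A4galt, which makes the Pk glycolipid antigen, had 6.68, 4.06 and 1.14 CPM against 0.577 and 1.08 CPM (log2 fold change -2.17 ± 0.84). B3galnt1, a glycolipid enzyme, had 16.0, 6.27 and 6.49 CPM against 4.62 and 2.32 CPM (-1.46 ± 0.58), and both had an adjusted p of 0.977. B4galt6, the most abundant of the 17 in CPM, had 275, 143 and 199 against 113 and 198 CPM.

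**Figure D5:**
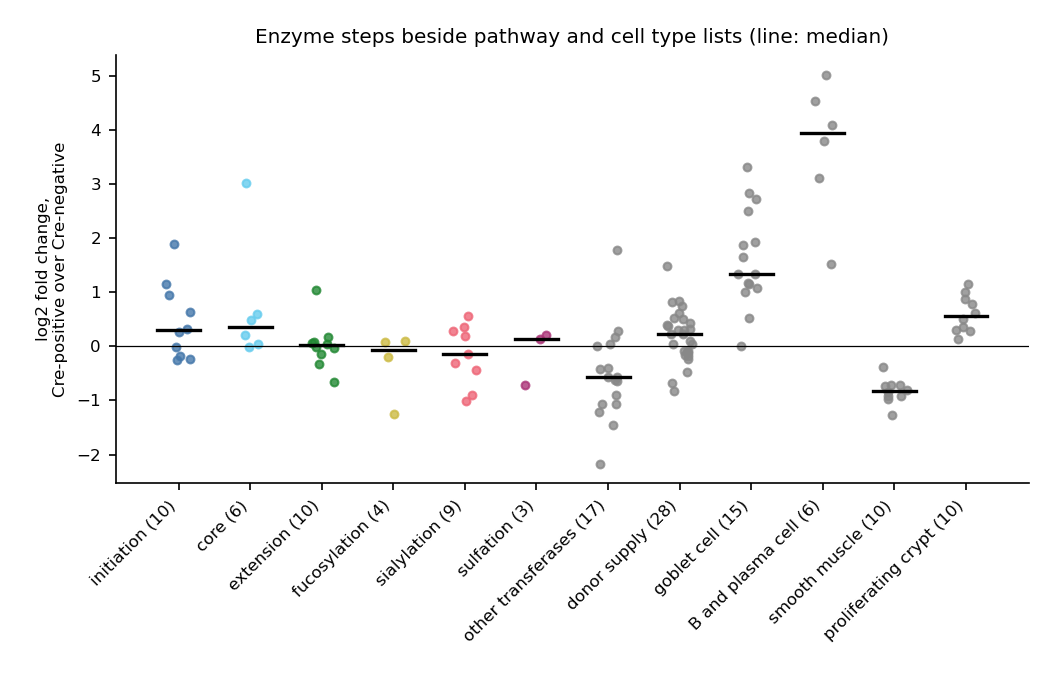
Log2 fold change (Cre-positive over Cre-negative) of each gene tested, by enzyme step (colour) and by pathway or cell type list (grey), with the number of genes in parentheses and a line at the median. The 6 enzyme steps have medians from -0.14 to 0.35, while the goblet cell median is 1.33.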

How the data were processed

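The authors deposited 1 table of estimated counts per gene symbol with 1 column per mouse, made with Partek on mm10, per the submitters' processing notes. The software version, the aligner, the gene annotation, the use of strand and how reads were assigned were not given in the sources used here. Summed over 5 mice, no gene had fewer than 10 counts. Values farther than 0.005 from a whole number occurred in 15 members, in all 5 libraries for 7 of them. Before testing, every estimated count was rounded. Replicate numbers only name mice and give no pairing.

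Differences were tested in edgeR 4.0.16 (R 4.3.3) with TMM scaling, a filterByExpr limit of 10 counts, quasi-likelihood fits with robust estimation, genotype as the sole factor, and Benjamini-Hochberg adjustment over all 14352 genes tested, with a threshold of 0.05. The filter asks for enough counts in as many libraries as the smaller group has. Counts in both Cre-positive mice therefore suffice, and so do counts in 2 Cre-negative mice. Each SE is the absolute log2 fold change over the root of its F value. CPM is scaled by TMM. Levels between genes are compared as CPM per kb of the exon union in GENCODE M21 (GRCm38), which may differ from the annotation the authors counted on. Among the members checked for overlap, exons of 3 overlap another gene on the same strand and of 17 on the opposite strand. That check left out Galnt1, Slc26a2 and St6galnac2, and included Galnt14 and St6galnac1. Single values were compared with exact permutation tests over the 10 splits, run under Python 3.11.15. Members, steps, lists, motifs and the rule for named genes were chosen with earlier results of these data known. Values in every library are given for the most abundant member of each step, the 2 of smallest unadjusted p and those with groups apart. Galnt5, Galnt3, Galnt6, Gcnt3, B3gnt7, B4galt1, C1galt1c1, St6gal1, B3galt5, Gmds and the position genes were named after their values were seen. Alternatives tried: scaling by RLE, by upper quartile or by total count, no filter, a filter of 5 CPM in 2 libraries, no robust estimation, DESeq2 1.42.0, limma-voom (limma 3.58.1), shares without exon length, and leaving out each mouse. The count of members with groups apart was redone without each mouse, an alternative chosen after seeing the data.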

Additional observations from a re-analysis of the deposited data

How the results depend on the processing

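No member was called under any of the alternatives run, with a lowest adjusted p of 0.0623 for a member, without Cre-positive 2. Over all genes, DESeq2 called 19 (12 higher and 7 lower), none of them a member. Leaving out each mouse gave 0 to 58 genes called, the 58 without Cre-positive 2, which leaves 1 Cre-positive library assumed to vary like the Cre-negative group. The lowest adjusted p of a member was 0.979 with limma-voom. Under edgeR's main settings 4 members had an unadjusted p under 0.05, and 13 did without Cre-positive 2 and 0 without Cre-positive 1. The median member log2 fold change lay between 0.01 and 0.17 without each mouse. Members whose groups did not overlap numbered 5 in the full data and 8 to 22 without each mouse, when 28% to 60% of all genes tested also did not overlap. Members with shares apart numbered 2 with or without exon length and 5 to 23 without each mouse, with no background over all genes for shares. These counts grow with fewer mice by construction, since fewer values have to be separated. The sign of the fold change turned for 19 of 42 members without Cre-positive 1 and for 0 to 4 under the other scalings, filters and tools. No paired analysis was possible because the labels give the groups no shared replicate numbers. Members under 3 counts in a library cannot be told from absent at this depth.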

Other observations

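The mucin core proteins that these enzymes decorate were measured in the same libraries. Of 13 listed mucin genes 9 had a row and 5 were tested, and 0 passed edgeR's test. Muc13, a membrane mucin of enterocytes, had 690, 2083 and 1417 CPM in Cre-negative and 2200 and 1809 CPM in Cre-positive mice, with a log2 fold change of 0.52 ± 0.45. Muc3, another membrane mucin, had 663, 815 and 236 CPM against 647 and 704 CPM. Muc4 had 25.5, 124 and 265 CPM against 173 and 169 CPM, with the Cre-negative mice spanning both Cre-positive values. Muc3a had 69.7, 114 and 22.2 CPM against 33.1 and 34.2 CPM. Of these 5 genes, 1 (20%), Muc2, had groups that did not overlap, a share near the 18% of all genes tested.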
